A study of Homo sapiens with 20 samples.

Results

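The Krueppel-like factors are a family of transcription factors, and their messenger RNAs were followed here in LP-1 and Raji, blood cancer lines of human origin, given an inhibitor of BET proteins. The genes considered were KLF2, KLF3, KLF4, KLF5, KLF6, KLF9, KLF10, KLF11, KLF12 and KLF13, and each was read from the probe set (the group of array probes that is summarised to 1 value) that carries its symbol and no other. By that rule 9 of the 10 genes were found, each with 1 probe set, among 22011 probe sets and 14232 genes with a probe set of 1 symbol. KLF11 is not described, because its probe set carries a second gene symbol as well.

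The 20 exon arrays come from LP-1, a line derived from a multiple myeloma, and Raji, derived from a Burkitt lymphoma. Each line was either left without compound (0 h), exposed to 500 nM of a BET inhibitor, or exposed to the inactive enantiomer of that inhibitor at an equal dose, and the compounds were sampled at 4 h and at 8 h. BET proteins are bromodomain proteins that bind acetylated histones and help RNA polymerase II into elongation, and an enantiomer is a mirror-image form of a molecule. The labels do not name the compound. The 10 groups hold 2 arrays each, which the design text calls biological replicates without saying what was kept separate, so the p-values measure the spread between these samples. Both lines were cultured in medium with serum, no transgene or knockout was used, and no untreated sample was taken at 4 h or 8 h.

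All Krueppel-like factors end in 3 zinc fingers that bind GC-rich DNA and CACCC boxes, and they differ in the domains ahead of the fingers that recruit partners. KLF2, KLF4, KLF5 and KLF6 carry activation domains and can also repress. KLF3 and KLF12 recruit the corepressor CtBP, and KLF9, KLF10, KLF11 and KLF13 recruit Sin3 complexes. In lymphoid cells KLF2 is known for keeping lymphocytes quiescent and guiding their homing, and KLF3 for a part in B cell maturation. The family often acts through shared target sites, so that 1 member can displace another.

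Values are log2 expression values as deposited, in which a difference of 1 is a 2-fold change of the measured RNA. A gene counts as called, higher or lower, where its adjusted p is under 0.05 in limma, a linear model with moderated variances fitted to all 20 arrays and adjusted over all 22011 probe sets. A difference is followed by its standard error unless another error is named. The values of different genes come from different probes and are not set against each other. In RNA from bulk cultures, less RNA per cell and fewer cells that hold it cannot be told apart.

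The arrays had medians from 5.13 to 5.39 and 75th percentiles from 6.75 to 7.23, and replicate arrays correlated at 0.973 to 0.989 across probe sets. The LP-1 medians, from 5.26 to 5.39, all lay above the Raji medians, from 5.13 to 5.25. Results that depend on this scale are given with rescaled values below. Replicate 1 of the inhibitor at 4 h in LP-1 stood lower than its partner, with a 75th percentile of 6.80 against 7.03. MYC fell by 2.30 at 4 h and by 1.85 at 8 h in LP-1 and by 1.40 at both times in Raji, and HEXIM1, which restrains the elongation factor P-TEFb and is a known marker of BET inhibition, rose by 1.04, 1.45, 1.93 and 1.90 on the log2 scale. The labels of the lines were checked against markers. Of 8 plasma cell markers 7 were called lower and 1 (CD38) higher in untreated Raji than in untreated LP-1, and of 7 B cell markers 6 were called higher and 1 (BACH2) lower. None of the 7 T and NK cell markers or of the 5 myeloid markers reached the arrays' 75th percentile in either line.

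KLF6 was the family member with a called response to the inhibitor, in LP-1. KLF6 is a growth-restraining factor known for activating the cell cycle inhibitor gene CDKN1A. Its values on the replicate arrays were 6.60 and 6.46 in untreated LP-1, 6.37 and 6.48 with the inactive enantiomer at 4 h, and 6.89 and 7.29 with the inhibitor at 4 h. At 8 h they were 5.69 and 5.80 with the inactive enantiomer and 7.37 and 6.71 with the inhibitor. At each time both inhibitor arrays stood above both inactive arrays and above both untreated arrays, and at 8 h both inactive arrays stood below every other LP-1 array.

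**Figure D1:**
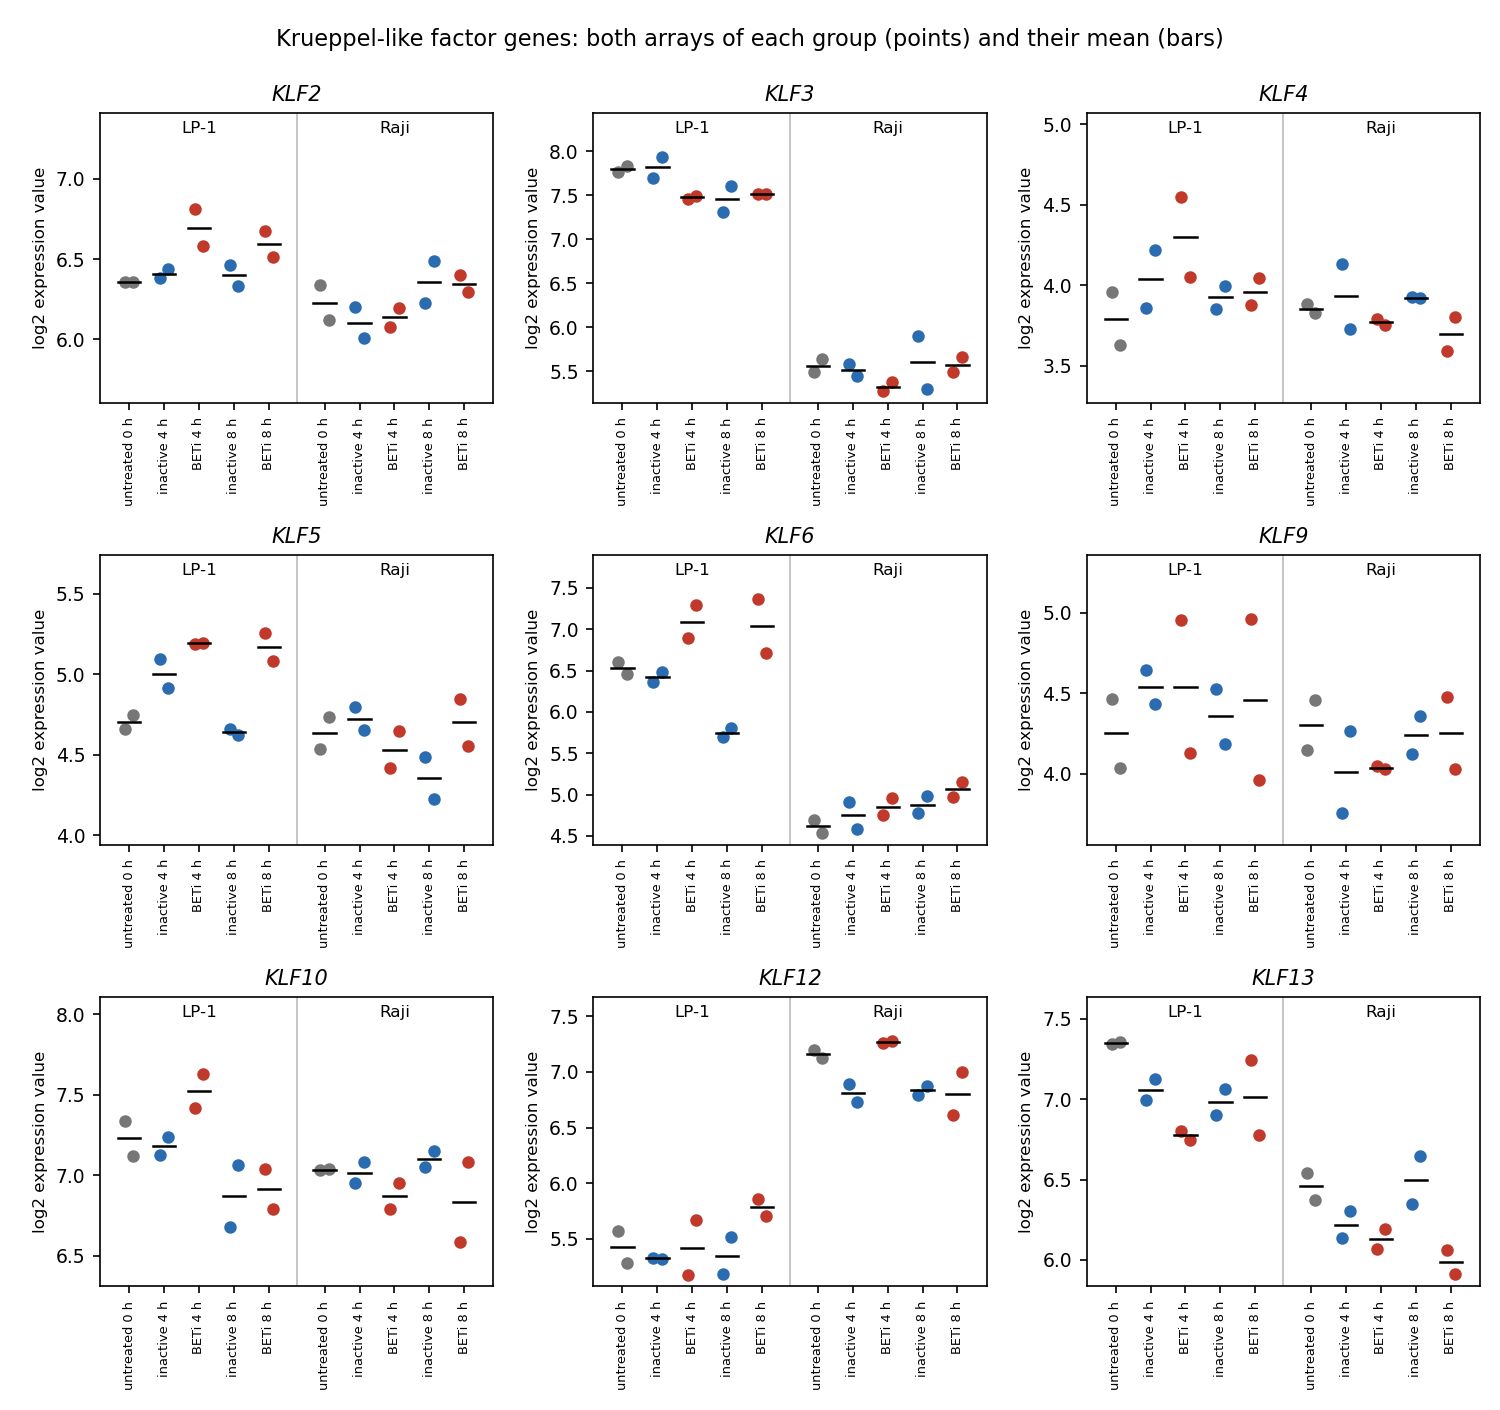
Log2 expression values of the 9 measured Krueppel-like factor genes in the 10 groups. Points are the 2 arrays of a group, bars are group means, and colours mark untreated (grey), inactive enantiomer (blue) and BET inhibitor (red). The vertical axis is scaled to each gene. KLF6 in LP-1 spreads from 5.69 to 7.37, whereas in Raji all 10 arrays lie between 4.54 and 5.15.

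KLF6 was 1.29 ± 0.21 higher with the inhibitor than with the inactive enantiomer at 8 h in LP-1 (95% interval 0.84 to 1.73, 2.44-fold, adjusted p = 0.00392, limma). The distance had parts on both sides of the untreated level, because the group means were 7.04 with the inhibitor, 6.53 untreated and 5.75 with the inactive enantiomer. At 4 h the difference was 0.67 ± 0.21 (0.23 to 1.11) and was not called, at an adjusted p of 0.128 in limma. It was called after quantile normalization of the arrays (0.90, adjusted p = 0.0326), and was 0.87 without the inhibitor's replicate 1 (adjusted p = 0.15) and 0.47 without its replicate 2 (adjusted p = 0.307). Over both times together the difference was 0.98 ± 0.14, or 1.97-fold (adjusted p = 0.0014, limma), and without replicate 1 of the inhibitor at 4 h it was 1.08 (adjusted p = 0.00223).

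Of the 9 genes, 1 was called at 8 h in LP-1, against 5.73% of all probe sets called either way and 3.76% called higher. For the mean of both times 1 of 9 was called, against 7.06% of all probe sets either way and 2.62% higher. At 4 h in LP-1 limma called 0 of 9, beside 2.28% of all probe sets. At an unadjusted p under 0.05 there was 1 of 9, beside 14.3% of all probe sets. Over all probe sets 65.6% of the calls at 8 h in LP-1 were higher, and the share was 53.9% after quantile normalization and 49.9% once arrays were centred on their medians.

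**Figure D2:**
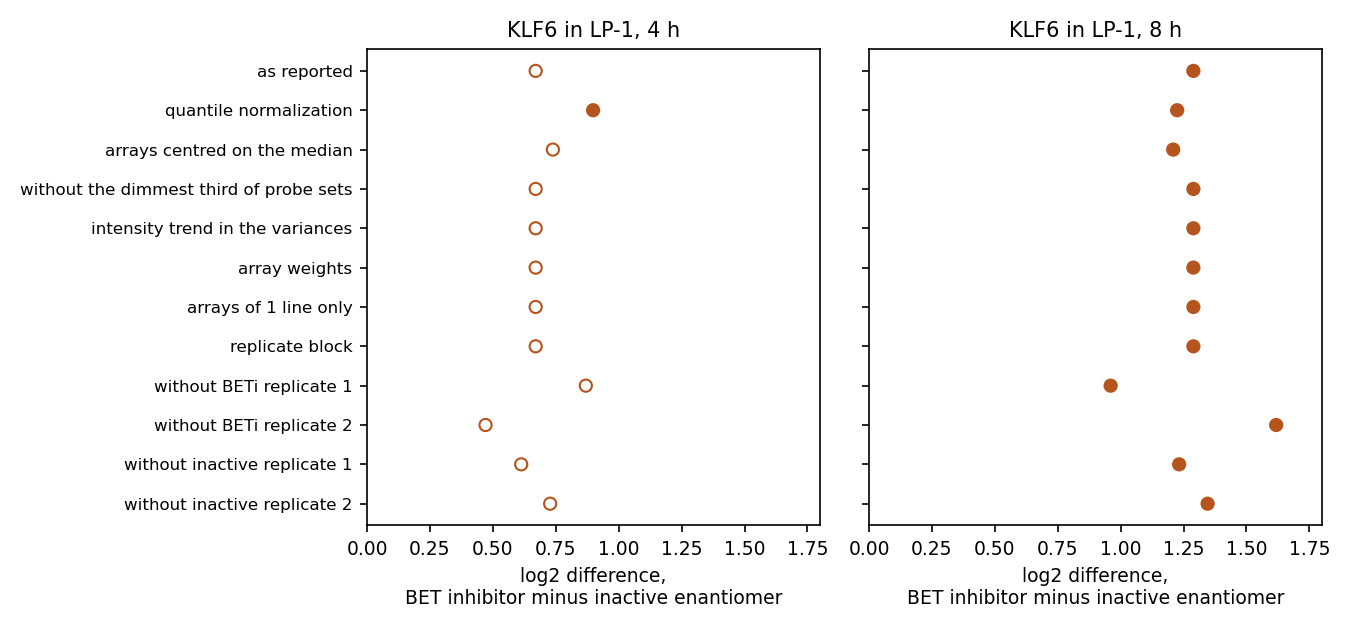
Log2 difference of KLF6 between BET inhibitor and inactive enantiomer in LP-1 at 4 h (left) and 8 h (right), under the reported fit and under each other setting, including leaving out each of the 4 arrays compared. Filled points have an adjusted p under 0.05. At 8 h the difference lay between 0.96 and 1.62 and was called in every setting shown, and at 4 h it was called after quantile normalization alone.

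In Raji the KLF6 values were 4.70 and 4.54 untreated, 4.91 and 4.59 with the inactive enantiomer at 4 h and 4.75 and 4.96 with the inhibitor. At 8 h they were 4.77 and 4.98 with the inactive enantiomer and 4.97 and 5.15 with the inhibitor. The inhibitor and inactive arrays overlapped at both times. The differences were 0.11 (95% interval -0.34 to 0.55) and 0.19 (-0.26 to 0.63), with adjusted p of 0.884 and 0.817 in limma.

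Whether KLF6 responded differently in the lines was tested as the difference of the differences. At 8 h the response in Raji minus that in LP-1 was -1.10 (95% interval -1.73 to -0.47), with an unadjusted p of 0.00232 and an adjusted p of 0.194 in limma. This difference of the lines therefore did not pass over all probe sets. Without replicate 2 of the inhibitor at 8 h in LP-1, the lower of that pair, it was -1.43 (adjusted p = 0.0316), and without replicate 1 it was -0.77 (adjusted p = 0.438). At 4 h the difference of the lines was -0.56 (adjusted p = 0.378, limma).

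KLF6 was also set against untreated cells. With the inactive enantiomer at 8 h in LP-1 it differed from the untreated arrays by -0.79 ± 0.21 (95% interval -1.23 to -0.34), which was not called (adjusted p = 0.108, limma), and at 4 h the difference from untreated was -0.11 ± 0.21. Compound and time in culture cannot be told apart here, since untreated cells were sampled at 0 h only. The response at 8 h exceeded that at 4 h by 0.62 in LP-1 (adjusted p = 0.39, limma). Ordered by their means, the LP-1 groups ran from the inhibitor at 4 h (7.09 ± 0.28, SD, n = 2) and 8 h (7.04 ± 0.47), which overlapped, to untreated (6.53 ± 0.10) and inactive at 4 h (6.42 ± 0.08), which overlapped, and to inactive at 8 h (5.75 ± 0.08). All Raji groups came below, from 5.06 to 4.62, each overlapping the next.

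KLF6 and KLF13 are the members with a called difference whose promoter is printed in full, KLF6 for the response above and KLF13 for the difference of the lines described further on. Sequences were taken from RefSeq on GRCh38.p14, as the 250 bases before the transcription start, and 13 promoters of 8 of the 10 genes were used. No promoter of KLF3 or KLF10 was among them. The motifs searched on both strands were the CACCC box, which reads GGGTG on the other strand, and the GC box GGGCGG, which reads CCGCCC there; capitals mark every match. The KLF6 promoter lies at chr10:3785210-3785459 on the minus strand, and the KLF13 promoter at chr15:31326585-31326834 on the plus strand.
KLF6: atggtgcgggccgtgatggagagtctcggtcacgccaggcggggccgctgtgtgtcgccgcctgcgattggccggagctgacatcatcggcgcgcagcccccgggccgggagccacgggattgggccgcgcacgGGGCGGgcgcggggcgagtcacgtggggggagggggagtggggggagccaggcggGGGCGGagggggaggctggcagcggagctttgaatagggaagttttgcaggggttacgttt
KLF13: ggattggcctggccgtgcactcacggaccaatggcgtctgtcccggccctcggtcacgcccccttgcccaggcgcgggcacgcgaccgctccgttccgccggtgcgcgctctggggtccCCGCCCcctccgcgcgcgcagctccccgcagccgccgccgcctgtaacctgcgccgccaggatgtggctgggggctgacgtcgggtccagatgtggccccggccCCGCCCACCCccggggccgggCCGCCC
The KLF6 promoter held 0 CACCC boxes and 2 GC boxes. The KLF13 promoter held 1 CACCC box and 3 GC boxes, with the CACCC box sharing bases with a GC box. The promoters of KLF12, which was also called between the lines, are not printed. They held from 0 to 5 CACCC boxes and from 0 to 4 GC boxes. Of the 13 promoters 6 held a CACCC box and 8 a GC box, against 54.7% and 42.6% of all 35116 promoters of this length. A match is a run of letters and was not tested as a binding site.

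KLF5, an activator best known from proliferating epithelium, was dim on the arrays, between the 32.1 and 48.5 percentiles of its array. In LP-1 its values were 4.66 and 4.75 untreated, 5.09 and 4.91 with the inactive enantiomer and 5.19 and 5.19 with the inhibitor at 4 h, and 4.66 and 4.63 against 5.26 and 5.08 at 8 h. The inhibitor arrays were above the inactive arrays at each time, and the inactive arrays at 8 h lay at or just under the untreated pair. The difference was 0.19 at 4 h (adjusted p = 0.617) and 0.52 ± 0.14 at 8 h (95% interval 0.21 to 0.84), just outside the threshold at an adjusted p of 0.0519 in limma. Over both times it was 0.36 ± 0.10 (adjusted p = 0.0543). With the dimmest probe sets (the lowest 7337 by mean) left out of the fit, the same differences were called at an adjusted p of 0.0327 at 8 h and 0.0352 over both times.

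In Raji, KLF5 stood at 4.54 and 4.74 untreated, at 4.80 and 4.66 (inactive) and 4.42 and 4.65 (inhibitor) at 4 h, and at 4.49 and 4.23 (inactive) and 4.85 and 4.56 (inhibitor) at 8 h. The inhibitor arrays were below the inactive arrays at 4 h and above them at 8 h, without overlap at either time. The differences were -0.19 and 0.35 (adjusted p = 0.62 and 0.312, limma). The change of the response from 4 h to 8 h in Raji was 0.54 (95% interval 0.10 to 0.98), with an adjusted p of 0.772, and KLF5 was the gene with an unadjusted p under 0.05 in that comparison.

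KLF2, the quiescence factor of lymphocytes, moved little. Its LP-1 values were 6.35 and 6.35 untreated, 6.38 and 6.44 with the inactive enantiomer and 6.81 and 6.58 with the inhibitor at 4 h, and 6.46 and 6.33 against 6.67 and 6.51 at 8 h. All 4 inhibitor arrays exceeded all 4 inactive arrays and both untreated arrays. The differences of 0.28 at 4 h and 0.20 at 8 h were not called (adjusted p = 0.363 and 0.498, limma), nor was their mean of 0.24 ± 0.10 (95% interval 0.03 to 0.45, adjusted p = 0.177). In Raji, KLF2 lay between 6.01 and 6.49 on the 10 arrays with overlapping groups, and the differences were 0.03 at 4 h and -0.01 at 8 h.

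KLF4, known for growth arrest and for its use in reprogramming, was dim on the arrays, between the 22.7 and 35.5 percentiles of its array, with no test against background in the deposited values. It ranged from 3.63 to 4.55 in LP-1 and from 3.59 to 4.13 in Raji. The highest value was replicate 1 of the inhibitor at 4 h in LP-1, whose partner stood at 4.05, within the inactive pair of 3.86 and 4.22. The differences were 0.26 and 0.03 in LP-1 and -0.16 and -0.23 in Raji at 4 h and 8 h (adjusted p from 0.603 to 0.956, limma).

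Among the members that recruit CtBP, KLF3 was marked by its distance between the lines. In LP-1 its values were 7.77 and 7.84 untreated, 7.70 and 7.94 (inactive) and 7.46 and 7.49 (inhibitor) at 4 h, and 7.31 and 7.60 against 7.51 and 7.51 at 8 h. The inhibitor pair lay below the inactive pair at 4 h and inside it at 8 h. The differences were -0.34 ± 0.18 and 0.06 ± 0.18 (adjusted p = 0.418 and 0.917, limma). Raji arrays lay between 5.28 and 5.91, with differences of -0.19 and -0.03, and the inactive pair at 8 h was the widest of them at 5.91 and 5.30.

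KLF12, a repressor first described for its action on the gene of the factor AP-2alpha, had the opposite order of the lines. Its LP-1 values were 5.57 and 5.29 untreated, 5.33 and 5.32 (inactive) and 5.18 and 5.66 (inhibitor) at 4 h, and 5.19 and 5.51 against 5.86 and 5.71 at 8 h. Both inhibitor arrays at 8 h were above every other LP-1 array. In Raji they were 7.20 and 7.13 untreated, 6.89 and 6.73 (inactive) and 7.26 and 7.28 (inhibitor) at 4 h, and 6.80 and 6.87 against 6.61 and 6.999 at 8 h. The inhibitor pair was above the inactive pair at 4 h and spanned it at 8 h. The differences were 0.09 and 0.43 in LP-1 (adjusted p = 0.872 and 0.21) and 0.46 and -0.03 in Raji (adjusted p = 0.262 and 0.979, limma), so none was called.

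The Sin3-recruiting members gave no called response. KLF13, first described as an activator of CCL5 in T lymphocytes, had LP-1 values of 7.34 and 7.36 untreated, 6.99 and 7.12 (inactive) and 6.80 and 6.75 (inhibitor) at 4 h, and 6.90 and 7.06 against 7.25 and 6.78 at 8 h. The untreated pair was above all 8 treated arrays. In Raji the values were 6.54 and 6.38 untreated, 6.14 and 6.30 against 6.07 and 6.19 at 4 h, and 6.35 and 6.64 (inactive) against 6.06 and 5.91 (inhibitor) at 8 h. The Raji pair with the inhibitor at 8 h was lower than every other Raji array. The difference there was -0.51 ± 0.16 (95% interval -0.85 to -0.17), not called at an adjusted p of 0.149 in limma, and the other differences were -0.28 and 0.03 in LP-1 and -0.09 in Raji at 4 h. The response of KLF13 at 8 h in Raji minus that in LP-1 was -0.54 (95% interval -1.02 to -0.05, adjusted p = 0.491).

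KLF10, an early response gene of TGF-beta, stood at 7.34 and 7.12 in untreated LP-1, at 7.13 and 7.24 (inactive) and 7.42 and 7.63 (inhibitor) at 4 h, and at 6.68 and 7.06 against 7.04 and 6.79 at 8 h. At 4 h the inhibitor pair was the highest of the LP-1 pairs, and at 8 h the pairs overlapped. The differences were 0.34 ± 0.18 and 0.04 ± 0.18 in LP-1 (adjusted p = 0.417 and 0.938, limma) and -0.15 and -0.27 in Raji, where the arrays ranged from 6.59 to 7.15.

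KLF9, a gene induced by glucocorticoid and thyroid hormone, had the widest replicate spread of the 9, with values between the 25.4 and 43.0 percentiles of its array. Replicate 1 exceeded replicate 2 in 5 of 5 LP-1 groups, and the inhibitor pairs stood at 4.96 and 4.13 at 4 h and 4.96 and 3.96 at 8 h. Their SDs of 0.59 and 0.71 exceeded every difference between group means of this gene. In Raji replicate 1 was the higher in 2 of 5 groups. The 4 differences lay between 0.00 and 0.10 with a standard error of 0.34, and a 95% interval in LP-1 at 8 h from -0.62 to 0.83, so that changes of the size seen for KLF5 were not detectable for KLF9.

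**Figure D3:**
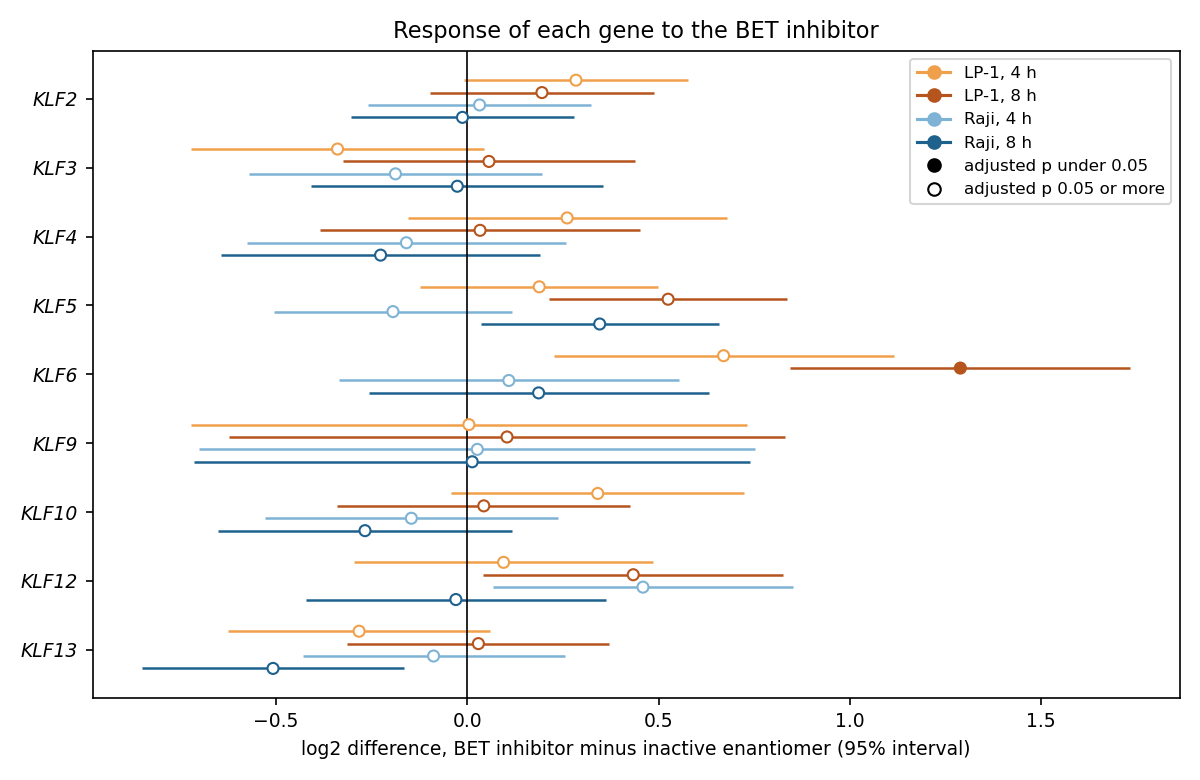
Log2 difference between BET inhibitor and inactive enantiomer (points) with its 95% interval (lines) for each gene in each line at each time, from limma. A filled point has an adjusted p under 0.05, which holds for KLF6 in LP-1 at 8 h (1.29) and for no other point, and the widest intervals belong to KLF9.

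In Raji limma called 0 of 9 genes at 4 h, 0 of 9 at 8 h and 0 of 9 over both times, beside 1.78%, 1.88% and 6.29% of all probe sets. At an unadjusted p under 0.05 there were 1, 2 and 1 of 9, beside 14.1%, 13% and 18.1% of all probe sets. The median difference of the 9 genes in Raji was -0.09 at 4 h and -0.03 at 8 h, beside 0.01 and -0.00 for all probe sets. In LP-1 the median was 0.19 at 4 h, beside -0.04 for all probe sets, and 0.10 at 8 h, beside 0.06. The number of genes with a positive difference at 8 h in LP-1 depended on the scaling, with 9 of 9 as deposited and 5 of 9 after quantile normalization or centring.

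Against untreated cells the inactive enantiomer left no member called. At 4 h in LP-1 limma called 0 of 9 genes and 0.0136% of all probe sets, with 0 of 9 and 4.95% at an unadjusted p under 0.05. At 8 h in LP-1 it called 0 of 9 and 0.504% of all probe sets, with 2 of 9 (KLF6 and KLF13) and 15.1% at an unadjusted p under 0.05. KLF13 differed there by -0.37 (95% interval -0.71 to -0.02, adjusted p = 0.298). The medians of the 9 genes and of all probe sets at 8 h in LP-1 were both -0.08. In Raji 0 of 9 were called at 4 h and 0 of 9 at 8 h, beside 0% of all probe sets at both times, and 0 of 9 had an unadjusted p under 0.05 each time, beside 7.91% and 4.52% of all probe sets.

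The differences of the response between lines and between times likewise gave no call. Between lines limma called 0 of 9 genes at 4 h and 0 of 9 at 8 h, against 0.114% and 0.245% of all probe sets. At an unadjusted p under 0.05 there were 0 of 9 at 4 h and 2 of 9 at 8 h (KLF6 and KLF13), beside 15.2% and 9.04% of all probe sets. At 8 h 9 of 9 differences were negative as deposited, 7 after quantile normalization and 8 after centring, and the median as deposited was -0.26 beside -0.07 for all probe sets. Between times 0 of 9 were called in LP-1 and 0 of 9 in Raji, as were 0% of all probe sets in each, and 0 and 1 had an unadjusted p under 0.05, beside 13.2% and 5.71% of all probe sets.

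At baseline some members were called between the lines and others were not, which does not show that the others are equal. In untreated cells the difference of Raji from LP-1 was -2.24 ± 0.18 for KLF3 (4.71-fold lower, adjusted p = 6.29e-07, limma). For KLF6 it was -1.92 ± 0.21 (3.77-fold lower, adjusted p = 1.17e-05). For KLF12 it was 1.73 ± 0.18 (3.32-fold higher, adjusted p = 9.28e-06). For KLF13 it was -0.89 ± 0.16 (1.85-fold lower, adjusted p = 0.000836), and -0.58 after quantile normalization (adjusted p = 0.0148). For each of these genes the 10 LP-1 arrays and the 10 Raji arrays did not overlap in the values as deposited, whatever the treatment. How many of all probe sets separate in this way was not counted, so whether the separation is unusual was not tested. The 24.3% of all probe sets called between the untreated lines is a different measure. The 10 arrays of a line are not replicates of a cell type. The ranges were 7.31 to 7.94 against 5.28 to 5.91 for KLF3, 5.69 to 7.37 against 4.54 to 5.15 for KLF6, and 5.18 to 5.86 against 6.61 to 7.28 for KLF12. For KLF13 they came closest, at 6.75 to 7.36 against 5.91 to 6.64. By percentile of its array KLF13 did overlap, at 71.8 to 76.5 in LP-1 against 61.9 to 72.1 in Raji.

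**Figure D4:**
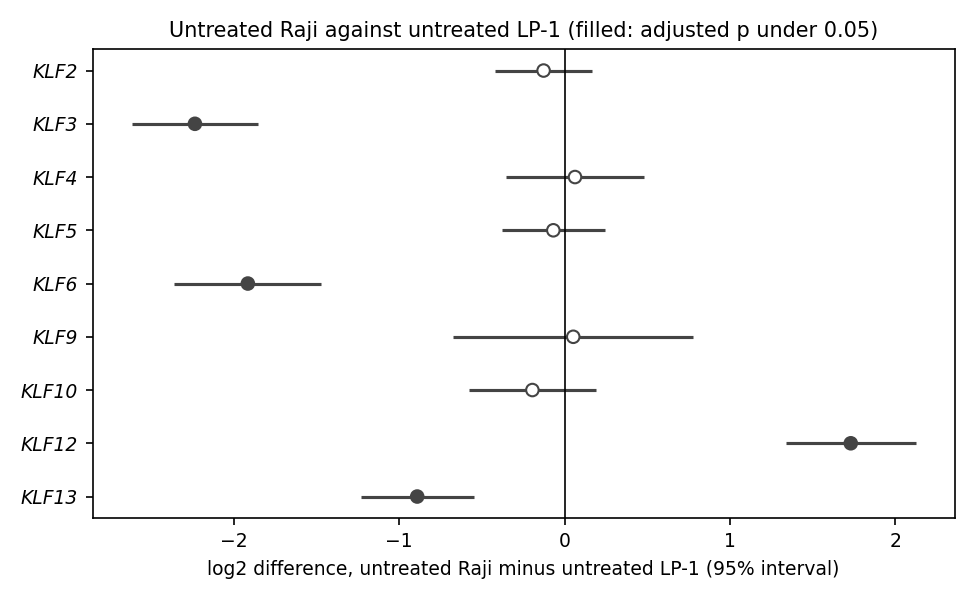
Log2 difference between untreated Raji and untreated LP-1 (points, n = 2 arrays per line) with its 95% interval for each of the 9 genes, from limma. Filled points have an adjusted p under 0.05: KLF3, KLF6 and KLF13 lie left of 0 (lower in Raji) and KLF12 right of it (higher in Raji).

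KLF2, KLF4, KLF5, KLF9 and KLF10 were not called between the lines, with differences of -0.13, 0.06, -0.07, 0.05 and -0.19. The intervals differ in width: KLF5 was bounded between -0.38 and 0.24, and KLF9 between -0.67 and 0.78. In all, 4 of 9 genes were called, 1 higher and 3 lower in Raji, and 24.3% of all probe sets were called, 6.79% higher and 17.5% lower. The median difference of the 9 genes was -0.13, beside -0.03 for all probe sets. That median of all probe sets moved to 0.07 after quantile normalization and to 0.11 with centred arrays, and the share of higher calls among all calls moved from 28% to 45.8% and 41.2%. Of the 9 genes 3 had a positive difference as deposited, 6 after quantile normalization and 5 with centred arrays. The sign of the family's median therefore depended on the scaling. The 4 calls kept their direction under each of these scalings. The lines differ in origin and medium, and what sets the baseline cannot be told apart with 1 line of each kind.

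Across the 20 arrays, with the mean of each line subtracted, the members did not move as a block. The 36 pairs of genes had a median Pearson's r of 0.10, from -0.45 (KLF5 and KLF13) to 0.59 (KLF5 and KLF6), and KLF2 with KLF6 was the other pair over 0.5, at 0.585. These values are descriptive, and the arrays share groups and scale. The genes whose pattern was most like that of KLF6 among the 14231 other genes were PRKCE (r = 0.863), a protein kinase C, CEMIP2 (0.859), a cell surface protein, and TNFRSF10D (0.844), a decoy receptor for TRAIL. Those most like KLF13 were XBP1 (0.846), RHBDF2 (0.846) and MAPK3 (0.843). For KLF5 they were OR13J1 (0.839), MYBPH (0.784) and GLRA1 (0.768).

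The rest of the family and the genes around it were read from 4 lists. Genes of these lists were fitted on the deposited values only, so whether their calls depend on the array scale was not tested. Counts below are in the order LP-1 at 4 h, LP-1 at 8 h, Raji at 4 h and Raji at 8 h, for which 2.28%, 5.73%, 1.78% and 1.88% of all probe sets were called and 14.3%, 18.9%, 14.1% and 13% had an unadjusted p under 0.05. Of the other KLF genes and the related SP genes 16 of 17 were measured. SP4, a factor that binds the same GC boxes, rose by 0.96 ± 0.16 at 8 h in LP-1 (adjusted p = 0.00557) and by 0.98 ± 0.16 at 4 h in Raji (adjusted p = 0.0122), whereas its differences at 4 h in LP-1 and 8 h in Raji were -0.08 and 0.63 (adjusted p = 0.0768 for the second, limma). No other gene of the list was called in these 4 comparisons, so that the counts of calls were 0, 1, 1 and 0, with 2, 3, 3 and 1 genes at an unadjusted p under 0.05. The medians of the list were -0.15, 0.14, -0.03 and 0.03, beside -0.04, 0.06, 0.01 and -0.00 for all probe sets. Between the untreated lines KLF7 (-2.67, Raji minus LP-1) and KLF8 (-2.50) were called lower in Raji, both chosen for naming after their values were seen. They were the 2 called of 16, beside 24.3% of all probe sets.

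Genes of proteins that partner or degrade the factors gave few calls for inhibitor over inactive enantiomer. Of 14 measured genes of 15 listed, limma called 0, 1, 0 and 0 in the same order of comparisons, and the called gene was FBXW7, the substrate receptor of a ubiquitin ligase that targets KLF5 and KLF2 among others. It rose by 0.71 ± 0.15 at 8 h in LP-1 (adjusted p = 0.0139) and differed by 0.63 at 4 h in Raji (adjusted p = 0.0517). Over both times it was called in LP-1 (0.40, adjusted p = 0.0377) and in Raji (0.47, adjusted p = 0.0163, limma). At an unadjusted p under 0.05 there were 1, 5, 1 and 2 genes by line and time. The medians were -0.06, 0.15, -0.00 and 0.04. Between the untreated lines 6 genes of this list were called, 1 higher in Raji (HDAC1) and 5 lower (SIN3A, CREBBP, KAT2B, WWP1 and SMURF1), named after their values were seen. That is 6 of 14, where 24.3% of all probe sets were called, 6.79% higher and 17.5% lower.

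Known upstream regulators of the family were called at 8 h in LP-1, where 3 of 12 measured genes (14 listed) rose and none fell, beside 3.76% of all probe sets called higher. These were TGFBR1, a TGF-beta receptor (0.79 ± 0.18, adjusted p = 0.0232), FOXO1, a factor that activates KLF2 in lymphocytes (0.74 ± 0.17, adjusted p = 0.0262), and SMAD4, the shared SMAD of TGF-beta signalling (0.60 ± 0.14, adjusted p = 0.028, limma). In the other comparisons of inhibitor and inactive enantiomer by line and time 0 were called, and over all of them 2, 6, 1 and 2 had an unadjusted p under 0.05. Over both times in LP-1 FOXO1 was called (0.46, adjusted p = 0.0391, limma). TGFBR1 (0.39, adjusted p = 0.0947) and SMAD4 (0.26, adjusted p = 0.168) were not called there. In Raji SMAD4 was called over both times (0.38, adjusted p = 0.0399, limma). For all 3 genes the mean with the inactive enantiomer at 8 h in LP-1 lay below the untreated mean, without a call. The list's median at 8 h in LP-1 was 0.24, beside 0.06 for all probe sets. Between the untreated lines 6 of the 12 were called, 1 higher in Raji (TGFBR1) and 5 lower (MAP2K5, MEF2C, MEF2D, SMAD3 and SMAD7), named after their values were seen. Of all probe sets 24.3% were called there, 6.79% higher and 17.5% lower. SMAD3 differed by -0.84 between the inactive enantiomer at 8 h and untreated LP-1 (adjusted p = 0.0456, limma) and was chosen for naming after its value was seen. It was the 1 called of 12 there, beside 0.504% of all probe sets. The calls over all probe sets in that comparison depended on the scaling. They were 111 as deposited, 19 after quantile normalization and 34 with centred arrays, and SMAD3 itself was not rescaled.

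Of 11 measured genes (12 listed) that Krueppel-like factors are reported to regulate, 1 rose and 1 fell at 4 h in LP-1, 3 rose and 1 fell at 8 h in LP-1, 1 fell at 4 h in Raji and 0 were called at 8 h in Raji, with 4, 5, 3 and 3 at an unadjusted p under 0.05 in limma. The medians of this list were 0.04, 0.23, -0.06 and -0.10. CDKN1A, the cell cycle inhibitor that KLF6 and KLF4 activate, rose by 1.48 ± 0.28 at 4 h and 1.04 ± 0.28 at 8 h in LP-1 (adjusted p = 0.0166 and 0.0487). TGFB1, a gene that KLF6 is reported to activate, rose by 0.90 ± 0.15 at 8 h in LP-1 (adjusted p = 0.00452). BCL11A, a zinc finger repressor of globin genes, fell by 0.62 at 4 h and by 0.76 at 8 h in LP-1 (adjusted p = 0.031 and 0.00625, limma). Over both times in Raji TGFB1 was called higher (0.53, adjusted p = 0.00917) and BCL11A lower (-0.38, adjusted p = 0.0322, limma). CDKN1A was not called there (0.28, adjusted p = 0.53, limma). Also called, and named after their values were seen, were LGALS3 (0.57 at 8 h in LP-1, adjusted p = 0.0472) and S1PR1, the homing receptor that KLF2 activates (-1.22 at 4 h in Raji, adjusted p = 0.0366). The S1PR1 means there were 2.76 with the inhibitor and 3.98 with the inactive enantiomer. Both lie in the dim range, below the lowest array median of 5.13. Between the untreated lines S1PR1 (-2.11, Raji minus LP-1) and ITGB7 (-2.72), also named after their values were seen, were called lower in Raji. They were the 2 called of 11, beside 24.3% of all probe sets.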

How the data were processed

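Total RNA from 20 cultures was amplified over whole transcripts, biotin-labelled and hybridised to Affymetrix exon arrays, per the labels' protocols. The authors deposited log2 expression values, 1 per probe set, computed with RMA in Affymetrix Expression Console on build hg19, per the submitters' processing notes, with no versions given. RMA shrinks differences of dim probe sets, and no detection call accompanies the values. Arrays carry no read depth, and their number limits the precision.

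The values were used as deposited. Gene symbols came from the platform's annotation: 14432 probe sets had 1 symbol, 2408 several and 5171 none. For all 22011 probe sets, group means were estimated from the 20 arrays with limma 3.58.1 in R 4.3.3 (10 residual and 2.59 prior degrees of freedom). Tests of the 15 comparisons were two-sided, p-values were adjusted by Benjamini-Hochberg over all probe sets, and intervals cover 95%. The procedure was tested on simulated data. Promoters were searched with Python 3.11.15.

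The genes and lists were chosen with earlier results of these data known. Named were the members, up to 3 called genes of each list with the smallest p, MYC and HEXIM1, and for 3 members the 3 genes with the highest r, with exceptions marked in the text. The lists come from general knowledge. Samples with the same replicate number did not deviate together (r from -0.03 to 0.12 between LP-1 groups and from -0.16 to 0.05 between Raji groups), so numbers were not treated as pairs. Other settings were quantile normalization, centring on array medians, leaving out the 7337 dimmest probe sets, an intensity trend, array weights, fits within 1 line, a replicate block and leaving out each array.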

Additional observations from a re-analysis of the deposited data

How the results depend on the processing

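The 135 differences (9 genes in 15 comparisons, 6 called) were recomputed under 3588 alternatives in all: 3584 kept their call, 0 lost one, 4 gained one and 0 called differences changed sign, while 134 alternative values of uncalled differences did. Many alternatives leave out an array outside the comparison, which cannot move the difference itself. The 4 gains moved counts of called genes. In LP-1 at 4 h the count was 1 instead of 0 after quantile normalization (KLF6). Without the 7337 dimmest probe sets, which leaves out KLF4 and KLF9, it was 2 instead of 1 in LP-1 at 8 h and 2 instead of 1 over both times (KLF5). For the difference of the lines at 8 h the count ranged from 0 to 1 with 1 array left out, and was 1 without LP-1 inhibitor replicate 2 at 8 h (KLF6).

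The call of KLF6 in LP-1 at 8 h held in all 27 alternatives, from 0.96 to 1.62 with a highest adjusted p of 0.0457 (limma, LP-1 arrays alone), and over both times from 0.82 to 1.14 with a highest adjusted p of 0.0244. The 4 called differences of the untreated lines held in all 26 alternatives each. Of the 20 arrays left out in turn, 4 belong to the comparison at 8 h and 8 to that over both times. The comparison of the untreated lines holds 4. Leaving out any other array kept the difference as it was and could move the adjusted p alone. The same held for the settings other than quantile normalization and centring. With the replicate block KLF6 in LP-1 had an adjusted p of 0.0098 at 8 h and 0.175 at 4 h, and no count of called genes changed with that block: it stayed at 1 for LP-1 at 8 h. Averaging several probe sets of a gene could not differ, since each gene has 1. Counts over all probe sets moved more: with LP-1 or Raji arrays alone they fell from 502 to 76 and from 391 to 49 at 4 h and from 1262 to 347 and from 414 to 90 at 8 h. With 1 array left out they ranged from 64 (without LP-1 inactive replicate 2 at 4 h) to 971 (without LP-1 inhibitor replicate 2 at 4 h) in LP-1 at 4 h, from 485 (without LP-1 inactive replicate 1 at 8 h) to 1502 in LP-1 at 8 h, from 27 (without Raji inhibitor replicate 2 at 4 h) to 512 in Raji at 4 h and from 100 (without Raji inhibitor replicate 2 at 8 h) to 487 in Raji at 8 h. For the inactive enantiomer over untreated LP-1 at 8 h they ranged from 9 to 250, around a reported 111, and for the difference of the lines from 0 to 484 at 4 h (reported 25) and from 17 to 131 at 8 h (reported 54). Over both times they ranged from 828 to 1577 in LP-1 (reported 1554) and from 700 to 1569 in Raji (reported 1385), and for the difference of the times in LP-1 from 0 to 560 (reported 0, with 560 without LP-1 inhibitor replicate 2 at 4 h). The shares of all probe sets set beside the family's counts move with them. The number of arrays limits every difference, and KLF4, KLF5 and KLF9 lie in the dim range.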
